A study of Mus musculus with 6 samples.

Results

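Expression of 10 costimulatory genes was followed in activated mouse T cells, among the 52550 genes of the deposited table. The genes were taken by name. They comprise the receptors Cd28 and Icos of the immunoglobulin superfamily, the tumour necrosis factor (TNF) receptor family members Cd27, Tnfrsf4, Tnfrsf9 and Tnfrsf18, and the TNF family ligands Cd40lg, Tnfsf8, Tnfsf11 and Tnfsf14. All 10 were found in the table and all 10 were kept by the filter on low counts.

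Splenic CD3+ T cells of wild-type mice were activated with anti-CD3/CD28 antibodies for 24 h. In 3 samples the cells were activated without further addition (TCR alone). In 3 samples a small molecule that the labels name DMGV was present at 100 ng/ml (TCR+DMGV). DMGV is dimethylguanidino valeric acid, a product of methylated arginine. The study instead describes the sequenced cells as treated with LNY1, a purified factor, at 100 ng/ml. It identifies LNY1 as asymmetric and symmetric dimethylarginine, from which cells make DMGV. Which of these molecules was added cannot be told from the expression values. The labels call the samples biological replicates, but they give neither the age of the mice nor whether each sample came from a separate mouse. The study describes this experiment as 3 independent biological samples, and its methods give an age range of some weeks for its mice in general. Neither source states that each sample came from a separate mouse. Without such a statement, p-values measure the spread between these samples only. No unstimulated cells are among these 6 samples, so that induction by activation was not measured.

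A T cell that meets antigen receives a signal through its T cell receptor, and its response depends on further signals from costimulatory receptors. CD28 is present on resting cells and binds CD80 and CD86 on antigen presenting cells. ICOS and most TNF receptor family members appear on the surface after activation, and they act through phosphoinositide kinase or through TRAF adaptors and NF-kB. Activated T cells also display TNF family ligands, through which they act on B cells, dendritic cells and other cells.

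The 6 libraries held 37758725 to 43718867 estimated counts each. Library TCR alone 3 and library TCR+DMGV 1 stood apart from the other 4 on the first principal component of log2 expression, with scores of 42.06 and 42.89 against scores from -34.91 to -10.51. Results are therefore also given without these 2 libraries where they rest on them. Over all 14786 genes tested with edgeR, 2 genes (0.0135%) passed an adjusted p of 0.05. These were Slc39a9, a zinc transporter gene, and Ahcyl2, and both were singled out after their values had been seen. At an unadjusted p of 0.05, 471 genes (3.19%) were called. The 3 values of each group did not overlap for 1310 genes (8.86%), with 727 (4.92%) higher and 583 (3.94%) lower in TCR+DMGV.

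The cells expressed the 12 T cell markers at a summed level of 1549 to 1803 FPKM (fragments per kilobase of transcript, scaled to the size of the library) in TCR alone and of 1672 to 1857 FPKM in TCR+DMGV. The 12 B cell markers summed to 135.3 to 153.9 FPKM in TCR alone and to 133.9 to 143.3 FPKM in TCR+DMGV, most of it Ighm at a mean of 114.6 FPKM, and 8 of these 12 were under 1 FPKM. The 12 macrophage, monocyte and dendritic cell markers summed to at most 5.173 FPKM, with Cd14 and Siglech at 0 in all libraries. The 11 granulocyte, erythroid and platelet markers summed to at most 3.013 FPKM, with S100a8, S100a9, Ly6g and Mpo among those at 0. In such bulk samples, fewer cells of a type and less RNA per cell cannot be told apart.

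None of the 10 costimulatory genes passed the adjusted threshold (edgeR, 0 of 10, adjusted p = 0.9995 for each), 0 were called at an unadjusted p of 0.05, and for all 10 the values of both groups overlapped. The fitted log2 fold change of TCR+DMGV over TCR alone lay between -0.04 for Cd28 and 0.20 for Cd40lg. It was above 0 for 8 of 10 genes, beside 50.6% of all genes tested, and its median was 0.095 beside 0.0024 over all genes. The 12 T cell markers had a median of 0.098, with 12 of 12 above 0, and their part in the values of the costimulatory genes was not tested. Each of the 10 intervals at 95% confidence lay within a doubling and a halving, which stand at 1 and -1 on the log2 scale.

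**Figure D1:**
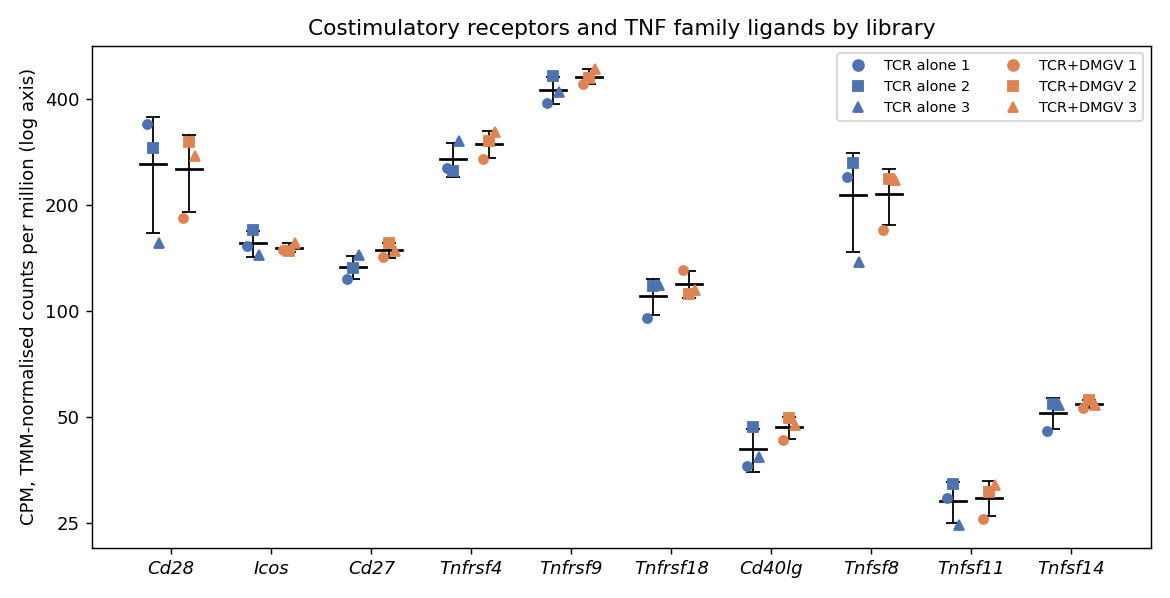
Normalised expression of the 10 genes in CPM (counts scaled to library size, log axis) in each of the 6 libraries, with points for libraries, horizontal bars for group means and error bars for the SD (n = 3). The values of TCR alone and TCR+DMGV overlap for every gene, and the widest spread within a group is that of Cd28, from 155.6 to 338.7 in TCR alone.

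**Figure D2:**
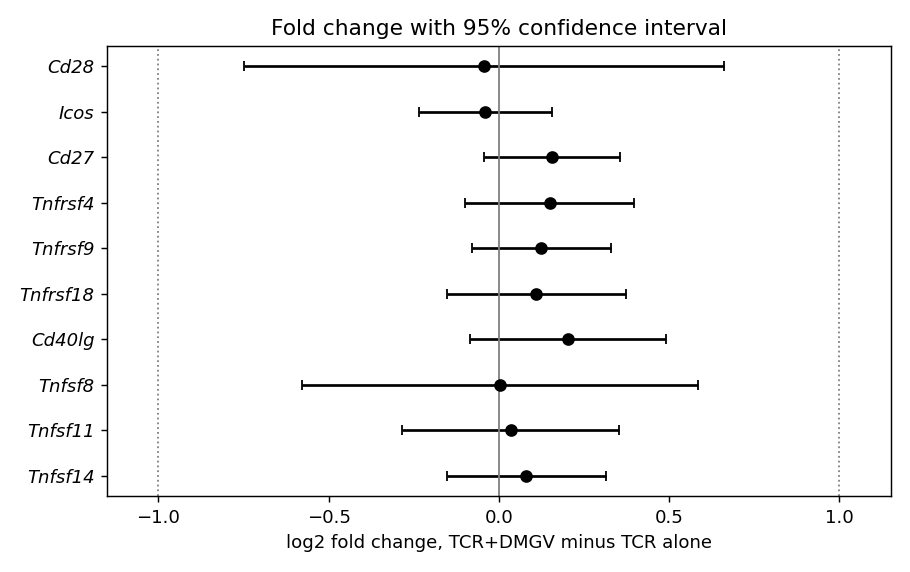
Log2 fold change of TCR+DMGV over TCR alone with its 95% confidence interval (edgeR, 3 libraries per group), and dotted lines at -1 and 1. All 10 intervals include 0, and the widest are those of Cd28 (-0.749 to 0.6599) and Tnfsf8 (-0.577 to 0.5835).

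Levels between genes were compared in FPKM, which accounts for transcript length. Tnfrsf4, which encodes OX40, had the highest level at 184.8 ± 18.81 FPKM (SD, n = 6 libraries), which was percentile 98.5 of the genes tested. Tnfrsf9, which encodes CD137, followed at 144.7 ± 9.404 FPKM, and the ranges of these genes (160.1 to 204.5 and 128.3 to 155.6) did not overlap. Tnfrsf18, which encodes GITR, stood at 66.97 ± 7.187 FPKM and below all values of Tnfrsf9. From Tnfrsf18 downwards, Cd27 (53.8 ± 4.221 FPKM), Tnfsf8 (49.78 ± 10.62 FPKM), Icos (39.69 ± 1.87 FPKM), Cd28 (37.28 ± 10.11 FPKM), Cd40lg (30.9 ± 3.283 FPKM) and Tnfsf14 (25.23 ± 1.666 FPKM) formed a continuous order, in which every gene overlapped its neighbour. Tnfsf11, which encodes RANKL, was lowest at 11.53 ± 1.057 FPKM, percentile 72.3, and lay below all values of Tnfsf14. The 4 TNF receptors thus held the first 4 places, and the ligands lay between the fifth and the tenth. The order of the 10 genes was the same in counts per kilobase of exon. The deposited counts themselves track FPKM times length, so this is not an independent check of the order. These levels are totals over all transcripts of a gene. For Tnfrsf4, 30.43% to 56.03% of the counts were given to a transcript annotated without a coding sequence.

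The binding partners of these proteins are mostly borne by other cells, and their transcripts were low. Of 13 partner genes, the highest was Tnfrsf14, which encodes HVEM, a receptor for the Tnfsf14 product, at a mean of 8.674 FPKM (range 7.361 to 10.46). It was followed by Tnfrsf8, which encodes CD30, the receptor for the Tnfsf8 product, at 4.976 FPKM, and by Tnfsf9, the ligand gene for CD137, at 1.961 FPKM. Tnfsf4, the ligand gene for OX40, was at 0.8351 FPKM, Cd86 at 0.4709 FPKM, Cd80 at 0.3498 FPKM and Cd70 at 0.1251 FPKM. Icosl was at 0.06128 FPKM and Tnfsf18, the ligand gene for GITR, was at 0 in all libraries. Each of the 10 costimulatory genes had a higher mean than every partner, although the lowest Tnfsf11 value of 10.04 FPKM overlapped the highest Tnfrsf14 value. Of the 9 partner genes tested, 0 passed at the adjusted or unadjusted threshold, and 6 lay above and 3 below 0 with a median log2 fold change of 0.19. Cd40, the receptor for the Cd40lg product, was the partner without overlap, with 1.862 ± 0.2492 CPM (counts scaled to library size) in TCR alone against 1.462 ± 0.04121 CPM in TCR+DMGV (SD, n = 3). Its log2 fold change was -0.35 (SE 0.23, edgeR, adjusted p = 0.9995). Of all genes tested, 8.86% were without overlap.

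**Figure D3:**
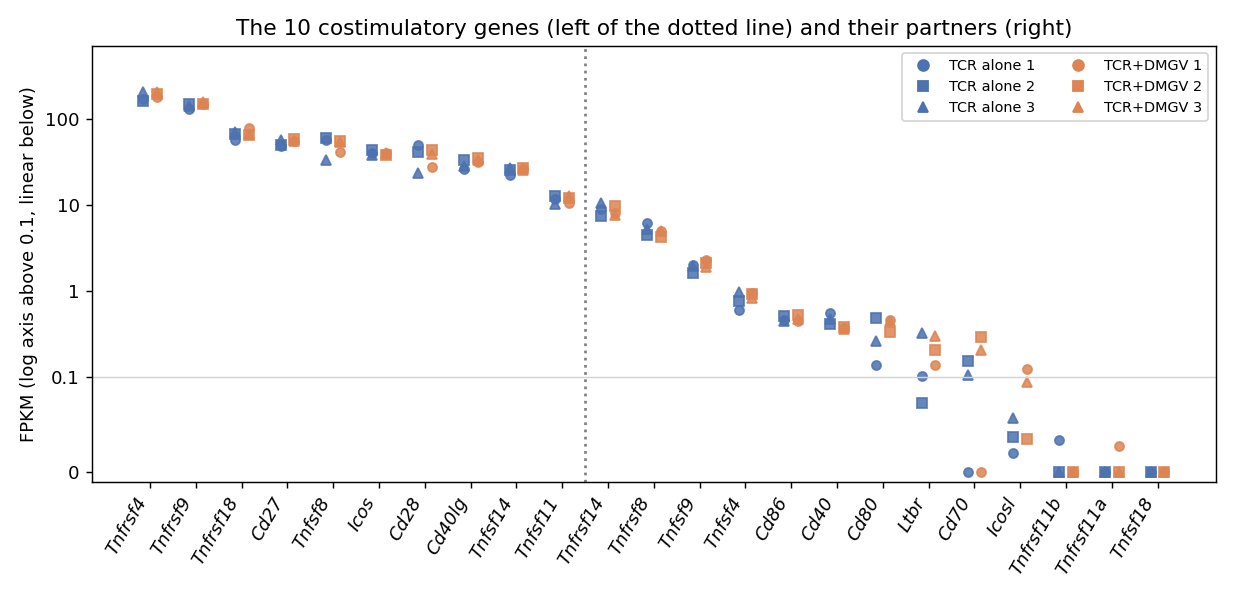
Expression in FPKM (log axis above 0.1, linear below) of the 10 costimulatory genes and of 13 genes encoding their ligands or receptors, each point being 1 library. The costimulatory genes lie between 10.04 and 204.5 FPKM, and all partners lie at or below 10.46 FPKM.

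Cd28 encodes the receptor that is bound by the activating antibody in these cultures. Its normalised counts were 338.7, 289.9 and 155.6 CPM in TCR alone against 182.9, 301.4 and 276.1 CPM in TCR+DMGV. The lowest value of each group came from the 2 libraries that stood apart, and the other 4 values lay within 276.1 to 338.7 CPM. The group means were 261.4 ± 94.83 and 253.5 ± 62.41 CPM (SD, n = 3), with a log2 fold change of -0.04 (SE 0.30, 95% interval -0.749 to 0.6599). Without the 2 libraries that stood apart the log2 fold change of Cd28 was -0.12 (SE 0.10).

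Icos encodes an inducible relative of CD28 that binds ICOSL and serves in help to B cells. It was measured at 152.8, 169.4 and 143.7 CPM in TCR alone and at 149.1, 148.3 and 155.9 CPM in TCR+DMGV. All values lay within 1.179-fold of each other, which was the narrowest range of the 10 genes. The log2 fold change was -0.04 (SE 0.083, 95% interval -0.2358 to 0.1563). Icos lies 204567 bases from Cd28 on chromosome 1 (chr1:60977927-61000320 and chr1:60716800-60773359, both on the + strand, GRCm38), with Ctla4 as the coding gene between them. Over the same libraries Cd28 spanned 2.177-fold.

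Cd27 encodes a receptor for CD70 that is already present on naive T cells. Its values were 123.4, 132.7 and 143.8 CPM in TCR alone against 142.0, 155.8 and 147.9 CPM in TCR+DMGV. Library TCR alone 3 lay above library TCR+DMGV 1, and these libraries, which both stood apart, were the place where the groups overlapped. The log2 fold change was 0.16 (SE 0.085, 95% interval -0.04238 to 0.3549). Without both libraries it was 0.25 (SE 0.088, edgeR, unadjusted p = 0.028, adjusted p = 0.733). In that setting 972 of 14888 genes were called at an unadjusted p of 0.05, against 471 of 14786 with all 6 libraries.

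Tnfrsf4 encodes OX40, a receptor that sustains the survival of activated T cells. It was at 253.7, 250.3 and 303.2 CPM in TCR alone and at 270.0, 304.0 and 321.0 CPM in TCR+DMGV. As for Cd27, TCR alone 3 was the value that reached into the other group. The log2 fold change was 0.15 (SE 0.11, 95% interval -0.09917 to 0.3968). Without the 2 libraries that stood apart it was 0.31 (SE 0.079, edgeR, unadjusted p = 0.0065, adjusted p = 0.667), which was the smallest unadjusted p of the 10 genes in that setting. There, 972 of all 14888 genes tested were called at an unadjusted p of 0.05.

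Tnfrsf9 encodes CD137, a receptor that is prominent on activated CD8+ T cells. Its values of 389.3, 464.9 and 418.7 CPM in TCR alone against 441.7, 459.4 and 487.1 CPM in TCR+DMGV were the highest CPM of the 10 genes in each library. The means were 424.3 ± 38.15 and 462.7 ± 22.86 CPM (SD, n = 3), with a log2 fold change of 0.125 (SE 0.087, 95% interval -0.07945 to 0.3295). TCR alone 2 lay within the range of TCR+DMGV.

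Tnfrsf18 encodes GITR, a receptor abundant on regulatory T cells and raised on activated cells. It was at 95.57, 117.2 and 118.3 CPM in TCR alone and at 130.9, 111.7 and 114.9 CPM in TCR+DMGV. A single library of each group carried the lowest and the highest value, and the other 4 lay within 111.7 to 118.3 CPM. The log2 fold change was 0.11 (SE 0.11, 95% interval -0.1521 to 0.3728). It was 0.00021 without TCR alone 1 and 0.034 without TCR+DMGV 1. Tnfrsf18 lies 9551 bases from Tnfrsf4 on the + strand of chromosome 4 (chr4:156026164-156028895 and chr4:156013843-156016612), with no coding gene between them. The antisense gene Gm16008 shared 414 of the 1524 exon bases of Tnfrsf18 and was given 439 to 813 counts per library. The counting was not stated to use strand, so that part of these counts cannot be assigned to either gene with certainty.

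Cd40lg encodes CD40 ligand, through which helper T cells activate B cells and dendritic cells. It was measured at 36.23, 46.73 and 38.41 CPM in TCR alone and at 42.89, 49.47 and 47.42 CPM in TCR+DMGV. It had the largest fold change of the 10 genes, 0.20 on the log2 scale (SE 0.12, 95% interval -0.08493 to 0.4921). The value of TCR alone 2 lay inside the TCR+DMGV range. The value depended on single libraries, since it was 0.32 without TCR alone 2 (edgeR, unadjusted p = 0.026, adjusted p = 1.00) and 0.11 without TCR alone 1 (edgeR, unadjusted p = 0.390, adjusted p = 1.00).

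Tnfsf8 encodes the ligand for CD30. Its values were 240.5, 262.4 and 137.7 CPM in TCR alone against 169.7, 237.2 and 235.1 CPM in TCR+DMGV. As with Cd28, the lowest value of each group was that of TCR alone 3 and TCR+DMGV 1. The means of 213.5 ± 66.57 and 214.0 ± 38.39 CPM (SD, n = 3) gave a log2 fold change of 0.0032 (SE 0.25, 95% interval -0.577 to 0.5835). Without the 2 libraries it was -0.088 (SE 0.083).

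Tnfsf11 encodes RANKL, the ligand for RANK on osteoclast precursors and dendritic cells and for the decoy receptor osteoprotegerin. It was at 29.36, 32.15 and 24.64 CPM in TCR alone and at 25.68, 30.52 and 32.02 CPM in TCR+DMGV, with a log2 fold change of 0.034 (SE 0.14, 95% interval -0.2855 to 0.3539). TCR alone 3 and TCR+DMGV 1 were again the lowest of their groups. Tnfsf14 encodes LIGHT, which binds HVEM and the lymphotoxin beta receptor. It was at 45.49, 54.45 and 53.95 CPM in TCR alone and at 53.05, 55.83 and 53.8 CPM in TCR+DMGV, with a log2 fold change of 0.08 (SE 0.099, 95% interval -0.1531 to 0.3132). Apart from TCR alone 1, all libraries lay within 53.05 to 55.83 CPM for Tnfsf14.

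The genes therefore differed in how far libraries of the same group lay apart. The pooled SD within groups was 0.50 for Cd28 and 0.41 for Tnfsf8 on the log2 scale, at percentiles 80.8 and 74.4 of all genes tested. For Tnfsf11 it was 0.18, and for Icos and Cd27 it was 0.089 and 0.091, at percentiles 13.7 and 14.5. Cd28 and Tnfsf8 had the lowest exonic GC content of the 10 genes, 41.0% and 42.6%, followed by Icos with 42.8%. Cd27, Tnfsf14 and Tnfrsf18 had 55.4% to 55.6%. After each library had been corrected for its trend with GC content, the SD of Cd28 went from 0.59 to 0.23 in TCR alone and from 0.38 to 0.14 in TCR+DMGV. For Tnfsf8 it went from 0.50 to 0.26 and from 0.28 to 0.12. For Icos, with nearly the same GC content as Tnfsf8, it went up from 0.12 to 0.17 in TCR alone and from 0.04 to 0.14 in TCR+DMGV. With this correction, which was added after the data had been seen, 0 of the 10 genes passed the adjusted threshold. All 10 lay above 0, although Icos was at only 0.0035 (SE 0.11). Their median was 0.076, beside -0.0021 over all genes tested.

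**Figure D4:**
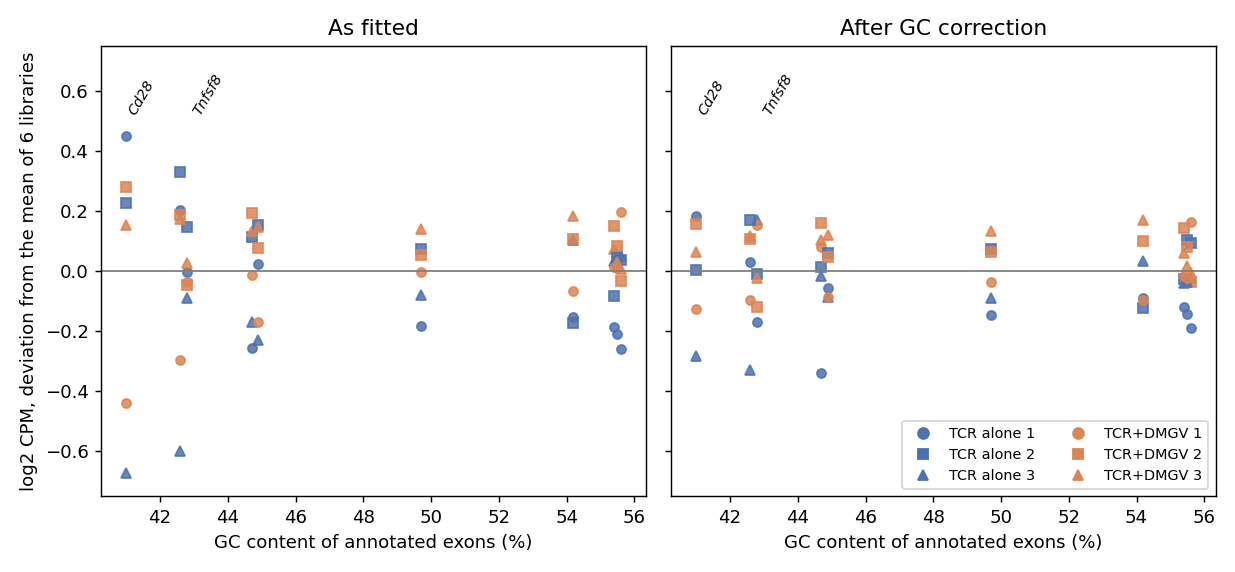
Deviation of each library from the 6-library mean of log2 CPM for the 10 genes, against the GC content of their annotated exons in percent, as fitted (left) and after GC correction (right). On the left, Cd28 at 41.0% GC spreads from -0.672 to 0.45, and on the right it spreads from -0.282 to 0.183.

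Per library, the median deviation of the 10 genes from their means was -0.169, 0.092 and -0.085 in TCR alone and -0.025, 0.095 and 0.136 in TCR+DMGV on the log2 scale. TCR alone 2 lay close to TCR+DMGV 2, and the groups overlapped.

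The table of transcripts divides each gene into its annotated isoforms. These estimates are apportioned among isoforms that share most of their exons and are less certain than gene totals. The 10 genes had 33 annotated transcripts, of which 31 were tested among 38401 transcripts. None of these 31 passed the adjusted threshold (edgeR), as did none of all transcripts (0%), although 1235 of all transcripts (3.22%) were called at an unadjusted p of 0.05 and DESeq2 called 394 after adjustment. For 3551 transcripts (9.25%) the groups did not overlap. Among the 31 this held for 5, of which Cd27-201, Cd27-205 and Tnfrsf4-202 were higher and Icos-201 and Tnfrsf18-204 lower in TCR+DMGV.

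Cd40lg, Tnfsf8, Tnfsf11 and Tnfsf14 have a single annotated transcript each. Cd28-201 held at least 99.72% of the Cd28 counts and Icos-202 at least 98.77% of the Icos counts in every library. Cd27-201 held 83.96% to 92.83% of the Cd27 counts, and its log2 fold change was 0.17 (SE 0.079, edgeR, unadjusted p = 0.082). Larger shifts between isoforms were seen in the other 3 TNF receptors.

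Tnfrsf9 (chr4:150914562-150946102, + strand, GRCm38) had 2 leading transcripts that differ in their start and in 1 coding exon. Tnfrsf9-205 begins at the downstream start and holds an exon of 135 bases (chr4:150935422-150935556), whereas Tnfrsf9-204 begins at the upstream start and lacks it. This exon codes for the part of the receptor that crosses the membrane, and a soluble form of CD137 made without it is known. Its sequence is shown because the counts of transcripts with and without it differed widely between libraries. The first line gives the exon in capitals with 20 bases of each neighbouring exon, and the second line the same neighbours joined directly in Tnfrsf9-204, both from GENCODE M21.
Tnfrsf9-205: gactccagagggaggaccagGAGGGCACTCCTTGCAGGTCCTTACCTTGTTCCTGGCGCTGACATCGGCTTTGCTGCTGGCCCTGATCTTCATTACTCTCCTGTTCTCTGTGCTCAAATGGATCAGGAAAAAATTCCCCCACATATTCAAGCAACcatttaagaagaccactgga
Tnfrsf9-204: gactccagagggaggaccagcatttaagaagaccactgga

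The length of this exon is a multiple of 3, so that the coding length is 768 bases with it and 633 bases without it. Transcripts that hold the exon took 45.16%, 89.56% and 86.53% of the Tnfrsf9 counts in TCR alone against 89.02%, 90.86% and 42.53% in TCR+DMGV. A single library of each group, TCR alone 1 and TCR+DMGV 3, thus had most of its counts in transcripts without the exon, and the group means of 73.75% ± 24.8 and 74.14% ± 27.39 were close to each other (SD, n = 3, exact permutation test, two-sided, p = 1.0). These were not the libraries that stood apart on the first principal component. The counts of Tnfrsf9-204 were 7582, 1083 and 712 in TCR alone against 844, 817 and 10509 in TCR+DMGV. Those of Tnfrsf9-205 were 3627, 14607 and 12707 in TCR alone against 15196, 15812 and 4331 in TCR+DMGV. The total of the gene did not follow this division, as TCR alone 1 had the lowest and TCR+DMGV 3 the highest CPM.

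The upstream start, used by Tnfrsf9-201 and Tnfrsf9-204, took 67.91%, 15.62% and 12.43% of counts in TCR alone against 12.11%, 12.82% and 68.51% in TCR+DMGV. The downstream start, used by 3 transcripts, took 25.15%, 77.15% and 73.74% in TCR alone against 77.56%, 80.36% and 23.01% in TCR+DMGV. The start and the exon thus changed together over libraries, and how far this reflects the apportioning of shared reads was not tested.

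The promoters of both starts are shown because transcripts from both were counted. Each window runs from 250 bases before to 50 bases after the start (RefSeq, GRCm38.p6, + strand). Capitals mark 3 motifs searched on both strands, which were GGAAA for NFAT, TGANTCA for AP-1 and GGGNNNNNCC for NF-kB, and matches may overlap.
upstream start, chr4:150919905-150920204: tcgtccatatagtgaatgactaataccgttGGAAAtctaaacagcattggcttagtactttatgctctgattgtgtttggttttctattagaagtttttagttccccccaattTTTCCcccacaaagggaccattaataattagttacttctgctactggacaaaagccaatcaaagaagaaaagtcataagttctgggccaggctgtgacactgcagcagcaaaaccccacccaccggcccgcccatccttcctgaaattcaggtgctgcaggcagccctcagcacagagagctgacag
downstream start, chr4:150927749-150928048: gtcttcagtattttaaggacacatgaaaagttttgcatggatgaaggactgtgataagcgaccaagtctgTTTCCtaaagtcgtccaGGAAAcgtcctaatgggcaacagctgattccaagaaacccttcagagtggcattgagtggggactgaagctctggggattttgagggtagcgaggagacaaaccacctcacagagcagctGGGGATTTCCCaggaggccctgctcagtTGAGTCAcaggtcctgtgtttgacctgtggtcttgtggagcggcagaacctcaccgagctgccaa

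The upstream window held 2 NFAT matches and no match to the others. The downstream window held 3 NFAT matches, 1 AP-1 match and 2 overlapping NF-kB matches, of which the NF-kB stretch also includes an NFAT match. Over 32851 mouse promoters of the same length, 61.34% held the NFAT letters, 7.808% the AP-1 letters and 50.79% the NF-kB letters. Promoters were found for 7 of the 10 genes, in 8 windows. Each of the 8 windows held the NFAT letters, and the AP-1 letters were found in the downstream Tnfrsf9 window and in that of Tnfsf14. The NF-kB letters were found in these same windows and in those of Cd27 and Tnfsf11. These are matches of letters and not measured binding.

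Tnfrsf18 was counted mainly as Tnfrsf18-202, at 59.85% to 85.05% of its counts. Tnfrsf18-201 lacks an exon of 203 bases (chr4:156028221-156028423, + strand) that codes for the membrane-spanning part of GITR, and Tnfrsf18-203 holds a further 71 bases after it (chr4:156028424-156028494). The exon and the further stretch are shown in capitals, with 20 bases on each side, because these segments distinguish the isoforms that varied.
Tnfrsf18-202: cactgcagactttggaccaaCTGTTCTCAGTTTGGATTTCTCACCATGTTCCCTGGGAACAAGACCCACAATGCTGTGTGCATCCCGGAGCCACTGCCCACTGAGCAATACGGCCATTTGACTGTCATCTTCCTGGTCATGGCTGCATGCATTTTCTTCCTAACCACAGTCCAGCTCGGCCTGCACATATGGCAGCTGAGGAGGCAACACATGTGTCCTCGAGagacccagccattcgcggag
Tnfrsf18-203: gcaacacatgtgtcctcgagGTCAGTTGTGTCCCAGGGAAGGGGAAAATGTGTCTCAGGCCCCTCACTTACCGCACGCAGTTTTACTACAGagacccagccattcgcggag

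Neither length is a multiple of 3. Transcripts with the whole exon took 97.41%, 69.52% and 84.01% of the Tnfrsf18 counts in TCR alone against 97.79%, 97.65% and 98.07% in TCR+DMGV. The groups did not overlap (exact permutation test, two-sided, p = 0.1, the smallest that 3 against 3 samples allow, adjusted p = 0.9 over 9 shares compared), but TCR alone 1 lay only just below TCR+DMGV. Tnfrsf18-201, which lacks the exon, had 37, 1391 and 604 counts in TCR alone against 126, 52 and 79 in TCR+DMGV. Its log2 fold change was -3.04 (SE 1.19, edgeR, unadjusted p = 0.046, adjusted p = 1.0), and TCR alone 1 was the lowest of all 6 libraries, so that the groups overlapped. It was the transcript called at the unadjusted threshold among the 31. The further stretch of Tnfrsf18-203 took 20.03%, 6.041% and 7.411% in TCR alone against 29.8%, 11.23% and 37.84% in TCR+DMGV (exact permutation test, p = 0.2).

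Tnfrsf4 was divided between the coding Tnfrsf4-201 and Tnfrsf4-203, which is annotated as a transcript without a coding sequence and holds 86 additional bases (chr4:156015300-156015385, + strand). These bases are shown in capitals between 20 bases of each flank, since they separate a coding from a non-coding transcript of the most abundant gene.
Tnfrsf4-203: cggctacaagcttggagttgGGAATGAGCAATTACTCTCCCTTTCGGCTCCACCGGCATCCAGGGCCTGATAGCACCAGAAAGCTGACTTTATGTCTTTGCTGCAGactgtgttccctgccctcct

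Tnfrsf4-203 took 53.54%, 34.51% and 52.91% of the Tnfrsf4 counts in TCR alone against 30.43%, 51.88% and 56.03% in TCR+DMGV. A single library of each group was low and the groups overlapped (exact permutation test, two-sided, p = 0.8). The exon of Cd27 that is missing from Cd27-202 (180 bases, chr6:125234515-125234694, - strand) was held by 84.95% to 93.86% of the Cd27 counts in all libraries.

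**Figure D5:**
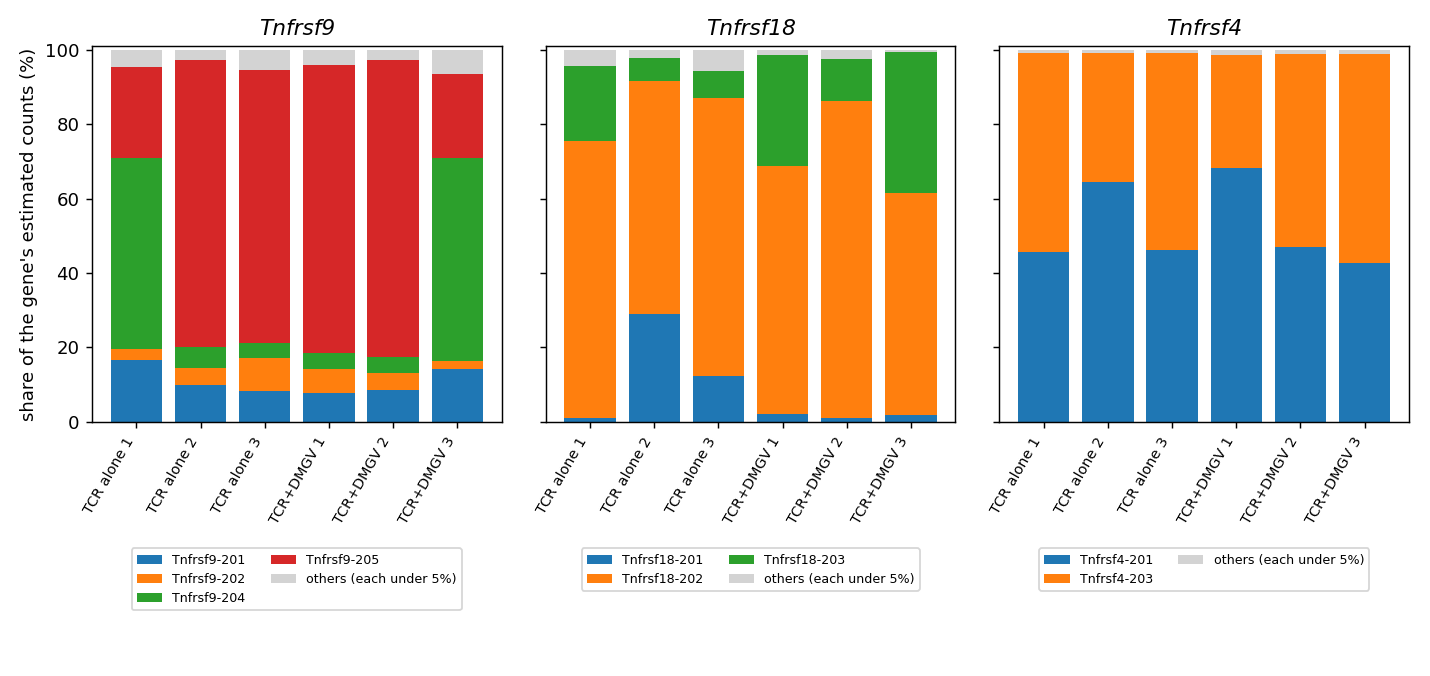
Share of each gene's estimated counts, in percent, given to its transcripts in each of the 6 libraries for Tnfrsf9, Tnfrsf18 and Tnfrsf4, where grey stands for transcripts that stayed under 5% in every library. Tnfrsf9-204 takes 51.28% and 54.45% in TCR alone 1 and TCR+DMGV 3 and at most 5.708% in the other 4 libraries.

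Genes that act beside or behind these receptors were counted in lists. In none of these lists did a gene pass the adjusted threshold (edgeR, adjusted p = 0.9995 for every gene named). For comparison, 4.92% of all genes tested were higher and 3.94% lower without overlap, and 3.19% were called at an unadjusted p of 0.05. Among 10 other TNF ligands, 7 were tested, of which 4 lay above and 3 below 0 with a median log2 fold change of 0.12. Tnf, the founding cytokine of the family, was at 27.83, 29.75 and 29.09 CPM in TCR alone and at 37.77, 33.14 and 39.9 CPM in TCR+DMGV. All 3 values with DMGV were above those without, with a log2 fold change of 0.35 (SE 0.10, unadjusted p = 0.0097). The ligands lower without overlap were Tnfsf15, which stood at 0.3921 CPM or less in all libraries, and Tnfsf10, which encodes the death ligand TRAIL. Tnfsf10 was at 34.46, 31.56 and 30.51 CPM in TCR alone against 28.85, 28.03 and 29.07 CPM in TCR+DMGV, a log2 fold change of -0.17 (SE 0.090). Lta, which encodes lymphotoxin alpha, was the most abundant of these ligands at 56.95 FPKM, and its log2 fold change was 0.12 (SE 0.11).

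Among 17 other TNF receptors, 14 were tested and had a median of 0.025, with 8 above and 6 below 0. Tnfrsf1b, a receptor for TNF and the most abundant of them, was at 105.8 ± 4.007 CPM in TCR alone and at 114.2 ± 1.276 CPM in TCR+DMGV (SD, n = 3), and Tnfrsf21, a death domain receptor, at 12.72 ± 0.05621 and 14.91 ± 0.4629 CPM. These were the receptors that were higher without overlap. Of 17 TRAF adaptor and alternative NF-kB genes, 5 lay above and 12 below 0 (median -0.044). Traf1, an adaptor that binds several TNF receptors, was higher without overlap with a log2 fold change of 0.22 (SE 0.099), as was Nfkb2 with 0.093 (SE 0.062). Map3k14, the kinase of the alternative NF-kB pathway, was lower without overlap, at 66.49 ± 3.727 CPM in TCR alone against 61.08 ± 1.012 CPM in TCR+DMGV (SD, n = 3), a log2 fold change of -0.12 (SE 0.081). Tnfaip3, which encodes the NF-kB inhibitor A20, was at 75.06, 72.04 and 74.75 CPM in TCR alone and at 80.34, 45.77 and 43.76 CPM in TCR+DMGV. Its groups overlapped through library TCR+DMGV 1, and its log2 fold change was -0.38 (SE 0.23). Without the 2 libraries that stood apart it was -0.71 (SE 0.098, edgeR, adjusted p = 0.161), and without TCR+DMGV 1 alone it was -0.73 (SE 0.099, adjusted p = 0.289). Both settings leave out TCR+DMGV 1, the library whose Tnfaip3 value lay above all values of TCR alone, so that the size of the change rests on that choice.

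Of 18 genes of CD28 and ICOS signalling, 13 lay above and 5 below 0, with a median of 0.0097. Pik3ca, a catalytic subunit of phosphoinositide kinase, was at 69.11 ± 1.096 CPM in TCR alone and at 80.98 ± 4.197 CPM in TCR+DMGV (SD, n = 3), a log2 fold change of 0.23 (SE 0.078, edgeR, unadjusted p = 0.021). Prkcq, the protein kinase C of the T cell synapse, was at 143.7 ± 3.31 and 171.8 ± 21.75 CPM, a log2 fold change of 0.26 (SE 0.10, edgeR, unadjusted p = 0.038). They were the 2 of these 18 genes that were called at an unadjusted p of 0.05, beside 3.19% of all genes tested. Lck, the most abundant of them and also 1 of the 12 T cell markers, differed by 0.025 (SE 0.077) on the log2 scale. Among 10 tested genes of other costimulatory receptors, 7 lay above 0 and the median was 0.096. Cd5 and Cd96 were among the 3 that were higher without overlap, beside 4.92% of all genes tested. Cd2, Cd5 and Cd6 of this list are also among the T cell markers.

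Of the 12 markers of T cell receptor activation, 8 lay above and 4 below 0, with a median of 0.085. They include Tnfrsf9, which is also among the 10 costimulatory genes, and Il2ra, which is also a regulatory T cell marker. Nr4a1, an immediate response gene of the receptor, was at 222.6 ± 19.65 CPM in TCR alone and at 276.9 ± 21.69 CPM in TCR+DMGV, a log2 fold change of 0.32 (SE 0.095, edgeR, unadjusted p = 0.012, adjusted p = 0.9995). Of the 10 regulatory T cell markers, 6 lay above and 4 below 0 with a median of 0.013, although OX40, GITR and ICOS are also borne by these cells. Foxp3, their defining transcription factor, was at 27.83, 25.48 and 32.54 CPM in TCR alone and at 36.24, 35.44 and 38.28 CPM in TCR+DMGV, a log2 fold change of 0.36 (SE 0.11, edgeR, unadjusted p = 0.016). Il10 was lower without overlap, with a log2 fold change of -0.57 (SE 0.18, edgeR, unadjusted p = 0.016). The 8 NK cell markers summed to 18.93 to 21.66 FPKM in TCR alone and to 20.35 to 23.96 FPKM in TCR+DMGV. Most of this sum was Eomes at a mean of 13.22 FPKM and Gzma at 5.402 FPKM, and 5 of these 8 were under 1 FPKM. The part of these cell types in the values of the 10 genes was not tested.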

How the data were processed

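RNA of 6 samples was sequenced with an mRNA library kit. According to the labels and methods, reads were cleaned with SOAPnuke, aligned with HISAT2 2.0.4 and quantified with StringTie. The processing notes name mm9, but 99.7% of gene identifiers matched GENCODE M21 (GRCm38), from which coordinates were taken. The authors deposited estimated counts per gene and transcript, as whole numbers, and FPKM values. At least 94.8% of transcripts above 500 counts lay within 1% of a constant times FPKM times length. The step from StringTie to counts, and the use of strand, were not given in the sources used here. All 37 mitochondrial genome genes were at 0.

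Genes were tested with edgeR 4.0.16 (R 4.3.3; quasi-likelihood test, TMM, default filter, two-sided, Benjamini-Hochberg adjustment, threshold 0.05), and this was tested on simulated data. CPM values are TMM-normalised. Shares of transcripts were compared by exact permutation (scipy 1.17.1). Principal components used log2 CPM with a prior count of 2. Alternatives used DESeq2 1.42.0 and limma 3.58.1. The genes and lists were chosen with earlier results of these data known. From each other list the rule named the 2 tested genes of smallest p and the most abundant gene, of which the text gives some. Other genes were named after their values were seen.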

Additional observations from a re-analysis of the deposited data

How the results depend on the processing

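None of the 10 costimulatory genes passed the adjusted threshold in the 17 other settings run, in which their adjusted p ranged from 0.649 to 1.00, and 154 of 170 fold changes kept their sign. The setting with summed transcript counts nearly repeated the main fit, since 99.7% of genes equalled the sum of their transcripts. The median log2 fold change of the 10 genes ranged from 0.065 to 0.143 when 1 library was left out and from 0.076 to 0.114 in the other settings. None of the transcripts of these genes passed in any setting run. Unadjusted calls appeared for Cd40lg without TCR alone 2 and, without TCR alone 3, for Cd27 and Tnfrsf4 (log2 fold changes 0.22 and 0.25). Over all genes, unadjusted calls numbered 435 of 15204 without TCR alone 2 and 1109 of 15191 without TCR alone 3. With all 6 libraries they numbered 471 of 14786.

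The count of all genes past the threshold was 2, and it was 14 with DESeq2, 12 without the 2 libraries that stood apart, 1 with library size alone, with all genes that had a count, with a mean count of 10 or more and with GC correction, 0 with limma on log2(FPKM + 1) or log2(FPKM + 0.1) (765 and 710 at an unadjusted p of 0.05), and 0 to 5 when 1 library was left out. With the replicate number as a block it was 0 (340 unadjusted). Deviations of same-numbered samples correlated at -0.154, 0.121 and -0.148. The labels do not say whether same-numbered samples share a mouse. These correlations cannot decide it, since those between differently numbered samples were not computed. The median chi-square per gene, which is lower for closer libraries, was 8.516, 4.836 and 6.812 for same-numbered samples. The lowest value across groups was 3.983, between TCR alone 3 and TCR+DMGV 1, which both stood apart. These values do not settle it either. The block changed no call on the 10 genes, whose median was 0.099.

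Signs turned for fold changes near 0 and for those of Hbb-bt and Itga2b, at 0.12 (SE 0.57) and 0.16 (SE 0.33). Tnfsf8 was at -0.0020 with DESeq2, -0.0036 with its size factors, -0.0084 with library size alone and -0.088 without the 2 libraries. With GC correction, chosen after seeing the data, Cd28 was at 0.055, Icos at 0.0035 and Lck at -0.0076. Without the 2 libraries Tnfrsf14 was at 0.11 and Ighm at 0.013. With 1 library left out the log2 fold changes ranged from -0.31 to 0.17 for Cd28, -0.087 to 0.024 for Icos, -0.23 to 0.18 for Tnfsf8, -0.060 to 0.12 for Tnfsf11, -0.016 to 0.12 for Tnfsf14, 0.086 to 0.22 for Cd27, 0.090 to 0.25 for Tnfrsf4, 0.050 to 0.19 for Tnfrsf9, 0.00021 to 0.17 for Tnfrsf18, 0.11 to 0.32 for Cd40lg, -0.19 to 0.052 for Tnfrsf14, -0.050 to 0.074 for Lck, -0.082 to 0.024 for Ighm, -0.20 to 0.57 for Hbb-bt and -0.00083 to 0.28 for Itga2b. The cause of these turns was not tested. With 3 libraries per group, the intervals of Cd28 and Tnfsf8 still include changes of over 0.5 on the log2 scale.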
